A study of Mus musculus with 2 samples.

Results

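The mouse Adam and Adamts metalloprotease genes were taken as every gene name on a pair of promoter arrays that reads Adam or Adamts followed by a number. There were 44 such genes among 17833 named genes, 25 on array 1 and 19 on array 2. By their known sites of expression, 16 were classed as testis Adam genes, 11 as somatic Adam genes and 1, Adam7, as an epididymal Adam gene. The other 16 were Adamts genes. The classes came from general knowledge of these genes and used no value of the arrays.

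The arrays measured DNA precipitated from germ cells of adult C57BL/6 mice, from 5 testes. An antibody against CREM, the cAMP-responsive element modulator, a transcription factor of haploid male germ cells, gave the DNA labelled with Cy5. A goat IgG precipitation gave the control DNA, labelled with Cy3. No genotype or drug treatment was part of the design, and the channels differed in antibody and dye. The 2 arrays belong to 1 promoter set and share 0 probes, and each was hybridised once without a dye swap. There were therefore no replicates and no test across samples, and the antibody and the dye cannot be told apart. Precipitated DNA carries no marker transcripts, so the labelled cell type was not checked here.

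Adam proteins are membrane-anchored proteins with a metalloprotease and a disintegrin domain. The somatic members with an active protease cut growth factors, cytokines and receptors from cell surfaces, whereas most testis members are made in spermatids, are carried on the sperm surface and serve in sperm migration and adhesion. Adamts proteins are secreted relatives that cut proteoglycans, procollagens and von Willebrand factor in the extracellular matrix and blood. CREM binds the cAMP-responsive element, a palindrome with the core TGACG, and is known for switching on genes of post-meiotic spermatids.

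Array 1 held 237195 measured probes and array 2 held 237185. Of these, 228277 and 226404 were used after leaving out probes without a position, outlier spots and probes dim in both channels. A spot that the scanner software marks as well above background is called bright here, and any other dim. The CREM channel was bright at 96.3% and 95.5% of probes of the 2 arrays, and the IgG channel at 77.4% and 78.5%. Control probes spotted at least 12 times on an array had a median standard deviation of 0.23 and 0.24 on the log2 scale, which is the only spread the arrays offer and covers spots of one hybridisation. Each value below is the log2 ratio of CREM over IgG signal, centred on the median of its array. A window is the median of 3 neighbouring probes whose starts lie at most 500 bp apart, and each gene has a highest and a lowest window. A window at 1 or more, a ratio of at least 2-fold towards CREM, is called the CREM side, and one at -1 or less the IgG side. The highest of many windows rises with the number of windows, so each count is read against all genes. Positions of probes are in the mm9 build.

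The sequences below are those at which the highest and lowest ratios lay. They are printed 5′ to 3′ as the array design gives them, with CG dinucleotides in capitals, and their strand is not given in the sources used here. The first 9 probes form the highest windows of Adam29, Adam2 and Adam30, the 3 testis Adam genes with the highest values.
Adam29 highest window, probe 1 (chr8:58386132-58386191): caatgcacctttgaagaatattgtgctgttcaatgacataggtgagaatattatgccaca
Adam29 highest window, probe 2 (chr8:58386260-58386319): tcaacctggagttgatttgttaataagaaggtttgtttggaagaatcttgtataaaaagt
Adam29 highest window, probe 3 (chr8:58386385-58386444): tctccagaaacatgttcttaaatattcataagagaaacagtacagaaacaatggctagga
Adam2 highest window, probe 1 (chr14:66695685-66695744): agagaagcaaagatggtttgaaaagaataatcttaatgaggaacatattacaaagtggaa
Adam2 highest window, probe 2 (chr14:66695874-66695933): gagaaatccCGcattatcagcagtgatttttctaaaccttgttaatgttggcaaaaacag
Adam2 highest window, probe 3 (chr14:66695983-66696042): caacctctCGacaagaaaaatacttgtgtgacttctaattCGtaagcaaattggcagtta
Adam30 highest window, probe 1 (chr3:97960594-97960653): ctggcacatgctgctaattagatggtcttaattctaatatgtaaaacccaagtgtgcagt
Adam30 highest window, probe 2 (chr3:97960727-97960786): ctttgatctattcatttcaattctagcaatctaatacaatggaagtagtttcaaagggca
Adam30 highest window, probe 3 (chr3:97960859-97960918): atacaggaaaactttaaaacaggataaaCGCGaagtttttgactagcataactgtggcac

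The highest windows of the somatic Adam genes Adam28 and Adam9 followed, and those of Adamts13 and Adamts4. They also hold few CG.
Adam28 highest window, probe 1 (chr14:69273215-69273274): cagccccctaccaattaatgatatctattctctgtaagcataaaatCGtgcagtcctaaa
Adam28 highest window, probe 2 (chr14:69273539-69273598): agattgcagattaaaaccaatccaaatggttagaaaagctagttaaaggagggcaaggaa
Adam28 highest window, probe 3 (chr14:69273830-69273878): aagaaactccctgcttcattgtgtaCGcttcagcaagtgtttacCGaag
Adam9 highest window, probe 1 (chr8:26061206-26061257): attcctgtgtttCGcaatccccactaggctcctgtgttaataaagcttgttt
Adam9 highest window, probe 2 (chr8:26061366-26061425): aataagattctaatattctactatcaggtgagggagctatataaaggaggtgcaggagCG
Adam9 highest window, probe 3 (chr8:26061484-26061542): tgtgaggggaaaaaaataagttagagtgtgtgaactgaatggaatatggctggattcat
Adamts13 highest window, probe 1 (chr2:26864696-26864755): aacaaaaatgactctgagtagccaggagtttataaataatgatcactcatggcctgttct
Adamts13 highest window, probe 2 (chr2:26864996-26865052): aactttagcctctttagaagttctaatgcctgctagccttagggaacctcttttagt
Adamts13 highest window, probe 3 (chr2:26865118-26865171): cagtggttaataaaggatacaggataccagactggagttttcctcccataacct
Adamts4 highest window, probe 1 (chr1:173179641-173179685): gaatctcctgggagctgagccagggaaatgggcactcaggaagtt
Adamts4 highest window, probe 2 (chr1:173179791-173179850): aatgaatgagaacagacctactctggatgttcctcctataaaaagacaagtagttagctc
Adamts4 highest window, probe 3 (chr1:173179965-173180021): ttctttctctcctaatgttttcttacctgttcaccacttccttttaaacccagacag

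The lowest window of Adamts1 was the lowest of any member, and each of its 3 probes holds CG.
Adamts1 lowest window, probe 1 (chr16:85802671-85802715): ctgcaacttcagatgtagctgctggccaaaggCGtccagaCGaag
Adamts1 lowest window, probe 2 (chr16:85802812-85802857): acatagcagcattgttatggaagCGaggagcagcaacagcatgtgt
Adamts1 lowest window, probe 3 (chr16:85803101-85803147): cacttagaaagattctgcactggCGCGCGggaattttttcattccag

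The RefSeq promoters of Adam29 and Adamts1, from 250 bases before to 50 after the start, show the same contrast. Here capitals mark CG and any match, on either strand, to the core TGACG or to the looser element TGACNTCA.
Adam29 promoter (chr8:55906915-55907214, minus strand, GRCm38.p6): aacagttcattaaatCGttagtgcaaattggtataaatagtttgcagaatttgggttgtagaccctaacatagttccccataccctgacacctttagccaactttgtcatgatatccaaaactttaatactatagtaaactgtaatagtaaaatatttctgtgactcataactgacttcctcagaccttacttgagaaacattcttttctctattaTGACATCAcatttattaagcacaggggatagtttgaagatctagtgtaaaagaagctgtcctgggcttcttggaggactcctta
Adamts1 promoter (chr16:85803064-85803363, minus strand, GRCm38.p6): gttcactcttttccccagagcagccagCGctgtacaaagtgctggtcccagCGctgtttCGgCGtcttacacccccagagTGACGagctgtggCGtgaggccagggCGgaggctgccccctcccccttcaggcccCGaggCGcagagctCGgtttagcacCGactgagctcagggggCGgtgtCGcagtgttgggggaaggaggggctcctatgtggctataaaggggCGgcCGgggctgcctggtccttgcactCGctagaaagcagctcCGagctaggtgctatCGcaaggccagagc
The Adam29 promoter holds 1 CG at 35.3% GC, and the Adamts1 promoter holds 18 at 64.7% GC.

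Of the 16 testis Adam genes, 12 had a window, and 5 of these reached the CREM side in their highest window (41.7%). Over all genes, 5968 of 17325 did so, which is 34.4%. The 5 were Adam29, Adam2, Adam30, Adam1a and Adam24. On the IgG side there were 0 of 12, while 33.7% of all genes lay there. The 12 genes are not replicates, so no bound is set on that count. They had a median of 12 windows, against 19 for all genes. With the trend of the ratio with GC content removed, the IgG side held 1 of 12, against 12.8% of all genes. The share on the CREM side thus lay near that of all genes.

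Adam29, a testis-specific member, had the highest window of all members, 1.70, at chr8:58386132-58386444. Its 3 probes read 677, 208 and 208 in the CREM channel against 180, 64.3 and 62.9 in the IgG channel. All 3 IgG signals were dim, so that window gives no lower bound on the fold. The window was the upstream end of a longer stretch. Over chr8:58385440-58386444, a span of 1005 bp across the transcript start, 8 consecutive probes of Adam29 all stood at 1 or more, between 1.04 and 1.88. In 5 of them both channels were bright: the CREM signals were 1569, 1211, 2130, 2091 and 2790, and the IgG signals 486, 346, 1022, 792 and 1088. The ratios of these 5 probes were 1.66, 1.78, 1.04, 1.38 and 1.34. No other member had more than 2 consecutive probes on the CREM side. Of all genes with a usable probe, 83 of 17820 (0.466%) had a run of at least 8. Runs were counted after these values had been seen.

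Adam2 encodes fertilin beta, a sperm surface protein needed for the maturation of other sperm Adams. Its highest window was 1.14, at chr14:66695685-66696042, with CREM signals of 539, 292 and 783 against IgG signals of 307, 113 and 351. Only the last of the 3 IgG signals was bright. Adam30 reached 1.12 at chr3:97960594-97960918, where the CREM signals were 314, 178 and 177 and the IgG signals 382, 80.5 and 63.0. The first probe of Adam30, the only one bright in both channels, read -0.31, so its window rested on the dim pair.

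Adam1a encodes a fertilin alpha that stays in the endoplasmic reticulum of spermatogenic cells and pairs with Adam2. Its highest window, 1.02 at chr5:121969461-121969869, was bright in both channels, with CREM signals of 12549, 11113 and 1347 against 6105, 4592 and 1140. This window lay 2039 bp downstream of the start rather than over it. Adam24, also called testase 1 and linked to the block to polyspermy, stood at 1.01 at chr8:41761353-41761707. Its CREM signals were 2039, 708 and 2595 and its IgG signals 1307, 294 and 1263, the second of which was dim. The highest windows from Adam2 to Adam24 differed by less than the spot spread of 0.23.

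The other 7 testis Adam genes with windows stayed below 1. Adam32 stood at 0.90, Adam3 (cyritestin, needed for passage through the uterotubal junction) at 0.66, and Adam18 and Adam21 both at 0.62. Adam1b, which encodes the fertilin alpha of the sperm surface, was at 0.44, Adam26a at 0.26 and Adam5 at 0.25. Their lowest windows were shallow, with Adam3 at -0.88 the deepest of all 12. The remaining 4 genes had no window: Adam25 had 2 probes at 0.41 and 0.44, Adam26b had 1 probe at 1.46, Adam39 had 1 at -0.61, and Adam6 had 2 at -0.30 and 0.05.

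Among the 11 somatic Adam genes, 1 reached the CREM side (9.09%) and 3 the IgG side (27.3%), against 34.4% and 33.7% of all genes. The gene on the CREM side was Adam28, a membrane protease first known from lymphocytes, with 1.14 at chr14:69273215-69273878. Its CREM signals of 1143, 540 and 184 met IgG signals of 1511, 96.2 and 82.1, and the only probe bright in IgG read -0.42. Adam9, a broadly expressed sheddase, fell just short of the threshold at 0.998, at chr8:26061206-26061542, with all 3 probes bright. Adam11, a catalytically inactive member of the nervous system, was next at 0.99. The remaining highest windows ran from Adam12 at 0.70, Adam23 at 0.66 and Adam19 at 0.58 down to Adam17, the TNF-converting enzyme, at 0.30 and Adam8, an Adam of immune cells, at 0.15. Adam15 at 0.54, Adam22 at 0.36 and Adam33 at 0.33 lay between.

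The 3 somatic genes on the IgG side were Adam9, Adam23 and Adam11. Adam9 read -1.35 at chr8:26127060-26127462, with CREM signals of 1994, 7258 and 356 against 5004, 13461 and 1251. Adam23, a neuronal receptor of LGI proteins, read -1.22 at chr1:63492775-63493083, where the CREM signals of 2027, 5786 and 507 met 8173, 8263 and 1158. Adam11 read -1.04 at chr11:102624037-102624581. Adam22 at -0.996, Adam15 at -0.96 and Adam8 at -0.95 lay just short of the threshold. Adam22 and Adam15 had these lowest windows 52 and 48 bp from their starts.

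Windows on both sides occurred in 2085 of 17325 genes and in 1 of the 40 members with a window. This member was Adam7, which is made in the epididymis and passed to sperm. Its highest window was 1.28 at chr14:69149522-69150021, where the CREM signals of 1339, 186 and 237 met IgG signals of 1508, 75.7 and 60.5. Its lowest was -1.14 at chr14:69152569-69152875, with CREM signals of 334, 330 and 428 against 553, 719 and 929. Only the lowest window was bright in both channels throughout.

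More Adamts genes reached the IgG side than the CREM side. Of 16, 2 reached the CREM side (12.5%) and 10 the IgG side (62.5%), against 34.4% and 33.7% of all genes. The pair on the CREM side was bright in both channels. Adamts13, the protease of von Willebrand factor, stood at 1.45 at chr2:26864696-26865171, with CREM signals of 1399, 1706 and 2029 against 956, 575 and 733. Adamts4, an aggrecanase, stood at 1.02 at chr1:173179641-173180021, with 1357, 1061 and 1575 against 1513, 515 and 685. Adamts17 at 0.96 and Adamts8 at 0.93 were the nearest below, and Adamts15 at 0.34 was the lowest.

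Of the 7 proteoglycanases, the branch that cuts aggrecan and versican, 5 reached the IgG side. That is 71.4%, from few genes, beside 62.5% of all 16 Adamts genes and 33.7% of all genes. Adamts1, needed for ovulation, had the deepest window of all members, -2.32 at chr16:85802671-85803147, a 4.99-fold excess of IgG signal. The CREM signals there were 504, 566 and 356 and the IgG signals 2481, 1270 and 2250. The window was part of a run of 5 consecutive probes at -1 or less over chr16:85802671-85803361, all bright in the IgG channel. In the CREM channel 4 of the 5 were bright, and the probe nearest the start was dim. A run that long occurred in 256 of 17820 genes (1.44%). Adamts8 read -1.54, Adamts15 -1.40, Adamts20 (which acts in melanoblast migration) -1.39 and the aggrecanase Adamts5 -1.04. The other two, Adamts4 at -0.81 and Adamts9 at -0.62, did not reach it.

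Adamts2, the procollagen N-peptidase, read -1.19. Of the COMP-cleaving pair, Adamts7 read -1.11 and Adamts12 -0.52. Among the other 5, Adamts19 read -1.97 with CREM signals of 191, 262 and 5839 against 741, 461 and 31361. Adamts18 read -1.89 with 474, 571 and 710 against 715, 2144 and 2587. Adamts17, which acts on fibrillin microfibrils, read -1.57 with 1766, 472 and 13905 against 4620, 1375 and 46425. Adamts16 and Adamts10, at -0.59 and -0.35, stayed above the threshold.

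**Figure D1:**
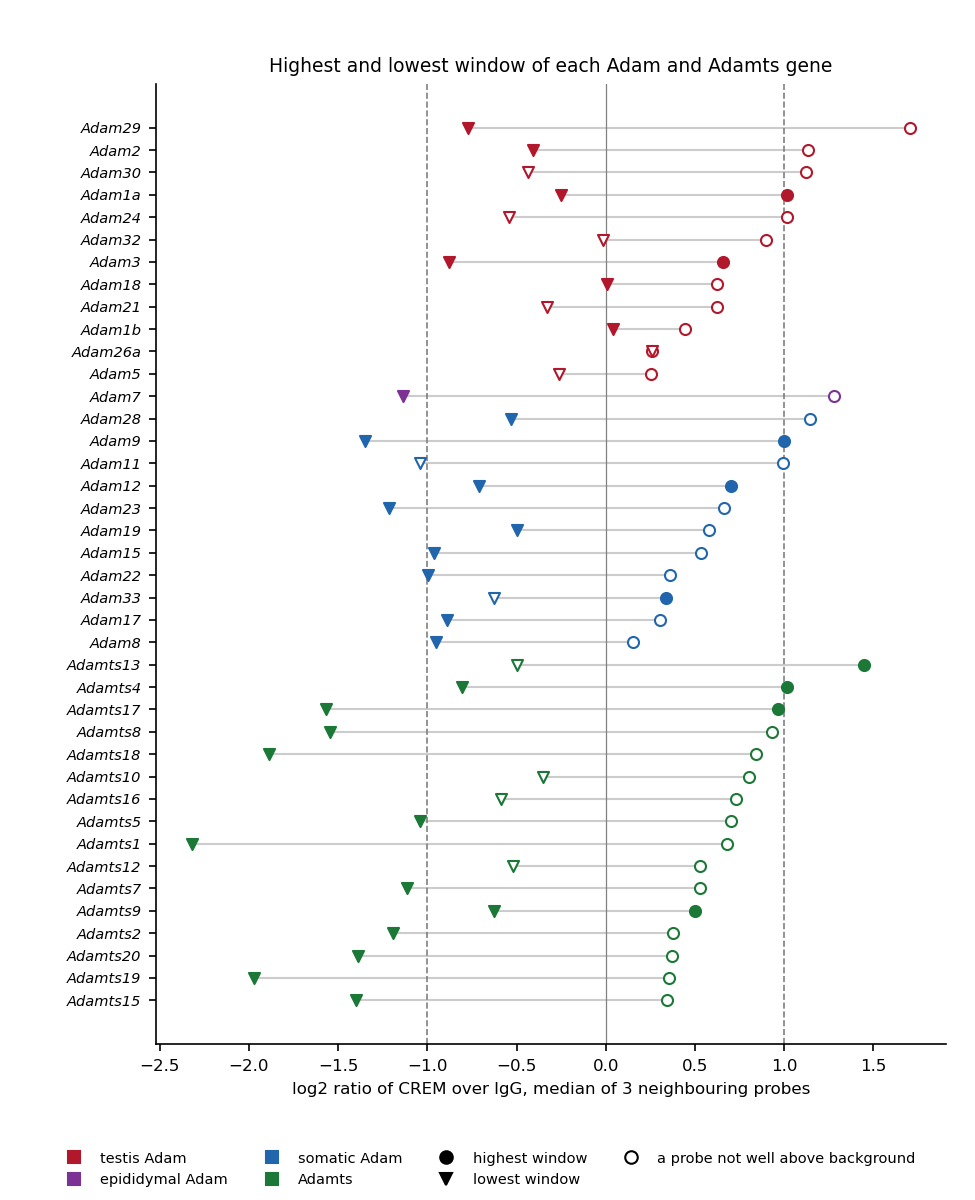
Highest (circles) and lowest (triangles) window of each of the 40 Adam and Adamts genes with a window, as the log2 ratio of CREM over IgG on the horizontal axis, by class; open symbols have at least 1 dim probe. All testis Adam triangles lie above -1, while 10 of 16 Adamts triangles lie at or below it, and most symbols beyond 1 on the right are open.

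Signal strength differed between the sides. Of the 9 members on the CREM side, 3 (Adam1a, Adamts13 and Adamts4) had 3 probes bright in IgG, Adam24 had 2, Adam2, Adam30, Adam28 and Adam7 had 1, and Adam29 had 0. Of all genes on the CREM side, 28.5% had 3 probes bright in both channels. When dim IgG signals in these windows were raised to the lowest bright signal of their array, 4 of the 9 windows stayed at 1 or more. On the IgG side, 13 of 14 windows were bright throughout, the exception being Adam11. The same share of all genes on that side is not given here.

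Median highest windows were 0.78 for the testis Adams, 0.58 for the somatic Adams and 0.69 for the Adamts genes, against 0.77 for all genes. The testis minus somatic difference was 0.20 and has no replicate error. Median lowest windows were -0.30, -0.95 and -1.15, against -0.76 for all genes. The classes also differed in coverage, with a median of 12 windows for testis Adams, 22 for somatic Adams, 29.5 for Adamts genes and 19 for all genes, so the extremes were drawn from unequal numbers. A gene's median over its own probes does not grow with their number. That median was above 0 in 9 of 12 testis Adam genes, 2 of 11 somatic ones and 4 of 16 Adamts genes. The shares were 75.0%, 18.2% and 25.0%, against 50.2% of all genes. The class median of these gene medians was 0.23, -0.11 and -0.08 in the same order, against 0.00 for all genes. Within array 1, 4 of 10 testis, 0 of 7 somatic and 2 of 5 Adamts genes were on the CREM side. Among all genes of array 1 the share was 33.3%. Within array 2 the counts were 1 of 2, 1 of 4 and 0 of 11, against 35.6%. On the IgG side, Adamts genes numbered 2 of 5 on array 1 and 8 of 11 on array 2, against 34.4% and 32.9% of all genes.

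Transcript starts could be placed in mm9 for 14 members, by exact matches between probes and RefSeq promoters. Around the start, the testis and other genes lay further apart than in their highest windows. The median ratio within 250 bp was 1.38 for Adam29, 0.54 for Adam1a, 0.41 for Adam1b and -0.02 for Adam21, so 3 of 4 testis genes lay above 0. Most probes of all placed genes lay below 0 in this interval, with a median of -0.37. The share of all placed genes with a median below 0 is not given here, so these gene counts have no background beside them. Of the 10 somatic Adam and Adamts genes, 8 lay below 0. These were Adamts1 at -1.86, Adamts20 at -1.50, Adamts18 at -1.49, Adamts2 at -1.41, Adam15 at -0.96, Adam22 at -0.93, Adam23 at -0.59 and Adamts17 at -0.16. Adamts12 at 0.29 and Adam19 at 0.18 were above 0. Pooled over probes in this interval, the median was 0.45 for testis Adams (13 probes), -0.87 for somatic Adams (9 probes) and -1.09 for Adamts genes (15 probes), against -0.37 for 8958 genes placed in the same way. The mean GC content of those probes was 39.9%, 57.6% and 57.4%, against 51.6%, and moved with the ratio. Whether GC content sets the difference was not tested at the starts alone.

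**Figure D2:**
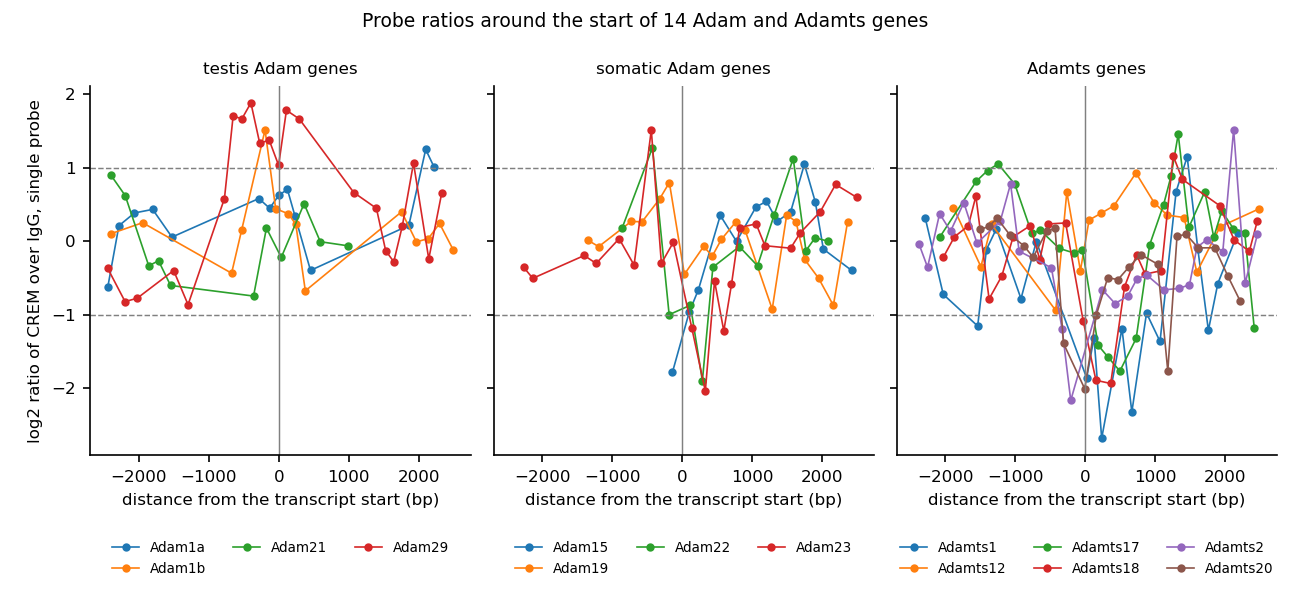
Single-probe log2 ratios of CREM over IgG (vertical axis) against distance from the transcript start in bp (horizontal axis) for 14 genes in 3 classes; lines join the probes of one gene and dashed lines mark 1 and -1. Adam29 stays above 1 across its start, whereas Adamts1, Adamts2, Adamts18 and Adamts20 dip below -1 near theirs.

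Probe composition followed the classes. Mean GC content was 38.4% over testis Adam probes, 43.2% over somatic ones, 43.9% over Adamts ones and 42.4% over all probes. Above 55% GC the median ratio was -0.79 over all probes, -0.76 for somatic Adams (29 probes) and -1.04 for Adamts genes (60 probes), and the testis Adams had 1 such probe, at -0.98. Most probes lay between 35% and 45% GC. There the medians were 0.17 for testis Adams, 0.01 for somatic Adams and 0.10 for Adamts genes, against 0.12 for all probes. Below 35% GC they were 0.24, 0.34 and 0.09 in the same order, against 0.10. Between 45% and 55% GC they were -0.06, -0.18 and -0.21, against -0.14. Of the 14 windows on the IgG side, 12 had at least 50% GC, whereas the 9 on the CREM side had 31.7% to 44.8%. The same held across the arrays. Of all probes above 55% GC, 40.6% stood at -1 or less and 0.875% at 1 or more. Between 35% and 45% GC the shares were 1.94% and 11.7%. When the trend of the ratio with GC content was removed, the CREM-side counts were 3 of 12 testis Adams, 1 of 11 somatic Adams and 1 of 16 Adamts genes, against 30.8% of all genes. The 3 testis genes were Adam29, Adam2 and Adam30. The IgG-side counts were 1 testis, 0 somatic and 2 Adamts genes. The Adamts share, 12.5%, then lay beside 12.8% of all genes.

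**Figure D3:**
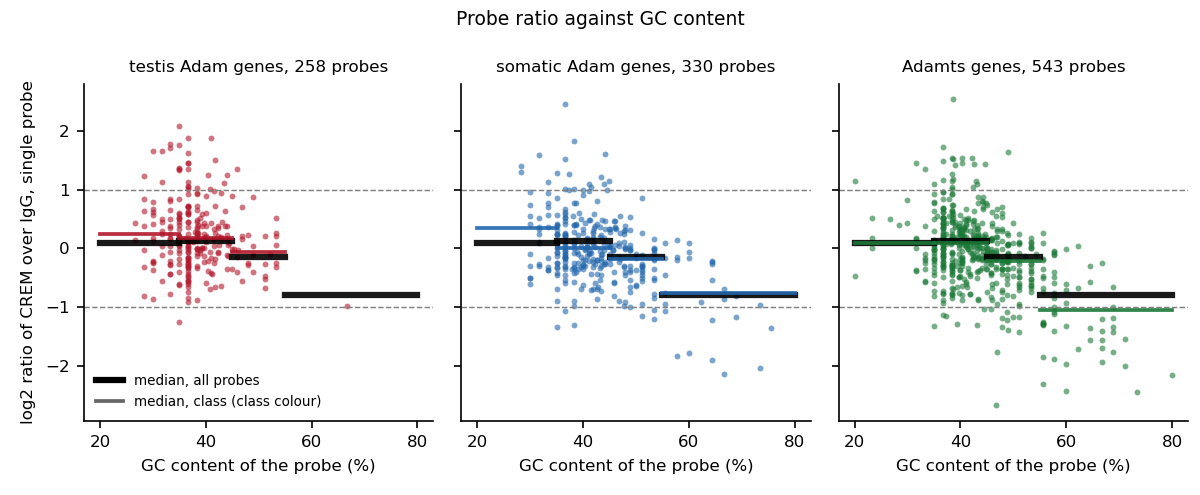
Log2 ratio of CREM over IgG (vertical axis) against GC content of the probe in percent (horizontal axis) for 258 testis Adam, 330 somatic Adam and 543 Adamts probes; black bars are medians over all probes and coloured bars medians of the class. Ratios fall above 55% GC, where 1 testis Adam probe lies.

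The palindromic element TGACGTCA occurred in 0 of 1154 member probes, a count that allows at most 0.26%, and in 259 of 454681 probes of both arrays (0.057%). Its core, TGACG or CGTCA on the other strand, which the palindrome contains, occurred in 20 member probes (1.73%) and in 2.08% of all probes. Those 20 probes had a median ratio of -0.23, with none at 1 or more and 3 at -1 or less, in Adam9, Adamts17 and Adamts5. Of all 9477 probes with the core, 11.6% were at 1 or more and 15.6% at -1 or less, with a median of -0.07, so the 3 member probes lay near the share of all. The highest was an Adam21 probe at 0.90, dim in IgG. RefSeq promoters were at hand for 20 member genes, 22 promoters in all. None held TGACGTCA, against 1.79% of 32851 promoters, and 3 held the core (13.6%, against 20.8%): Adamts1, Adamts9 and Adamts12. The median number of CG was 1 in 6 testis Adam promoters, 15 in 8 somatic and 20 in 8 Adamts promoters, and 7 over all.

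With 1 base of the element left free, as TGACNTCA or TGANGTCA on the other strand, 1 of the 22 promoters matched (4.55%, against 8.83% of all promoters). This was Adam29, where the match tgacatca begins 34 bases before the start, inside the run of 8 probes. The form was chosen after that promoter had been read, so the match is a description. Member probes held it in 11 cases (0.953%, against 1.01% of all probes), with a median ratio of 0.11. The probes from Adam30, Adam32 and Adamts17 read 1.35, 1.12 and 1.05, and the other 8 lay between -0.57 and 0.51, with 5 below 0. The Adam30 and Adam32 probes were dim in the IgG channel.

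Of the 16 testis Adam genes, 10 lie on chromosome 8. There Adam18, Adam3, Adam5 and Adam32 neighbour the somatic gene Adam9, and the highest windows of Adam32 and Adam9 are 2056 bp apart. Neither of the pair passed the threshold, at 0.90 and 0.998. The class counts without this pair are among the settings given at the close.

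Genes that act with these proteases were read in the same way, from lists of known partners. The lists were chosen with earlier results of these data known, so their counts are descriptions and give no independent support. Of 14 genes for the folding and maturation of sperm Adams, 8 passed the threshold towards CREM (57.1%) and 4 towards IgG (28.6%, against 33.7% of all genes). Their median highest window was 1.03. Only 1 of those 8 windows was bright in both channels throughout, and the difference from the 34.4% of all genes was not tested. The highest were Pcsk4, the convertase of germ cells that processes sperm Adams, at 3.05 (chr10:79792139-79792658, probes from 0.11 to 3.42), and the chaperone gene Canx at 2.78 (chr11:50139471-50139872, probes from 1.65 to 2.81). The lowest was Rnase10, an epididymal gene, at 0.10. Of 11 regulators and convertases of Adam10 and Adam17, there were 3 towards CREM (27.3%) and 4 towards IgG (36.4%). Both shares lay near the 34.4% and 33.7% of all genes. Pcsk7 led at 2.35, with none of its probes bright in IgG, followed by Frmd8 at 1.37, and Tspan17 was lowest at 0.31.

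Of 6 inhibitor genes, 1 was on the CREM side (16.7%, against 34.4% of all genes). This was Timp3 at 1.02, with Timp4 next at 0.82. Timp2, the lowest at 0.10, had a lowest window of -2.24. Of 6 Adamts-like genes and relatives, 1 was on the CREM side (16.7%), Adamtsl1 at 1.38. Adamtsl5 stood at 0.86 and Papln at 0.06. Of 20 substrate genes, there were 3 towards CREM and 11 towards IgG. Over all genes 33.7% lay towards IgG. The growth factor gene Areg led at 1.66, followed by Il6ra at 1.07 and Hbegf at 1.03. All 3 also had a window past the IgG threshold, at -1.81, -2.32 and -1.68, each further from 0 than the highest. Over all genes, 2085 of the 5968 on the CREM side also had a window on the IgG side. The proteoglycan gene Bcan was lowest at -0.07.

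**Figure D4:**
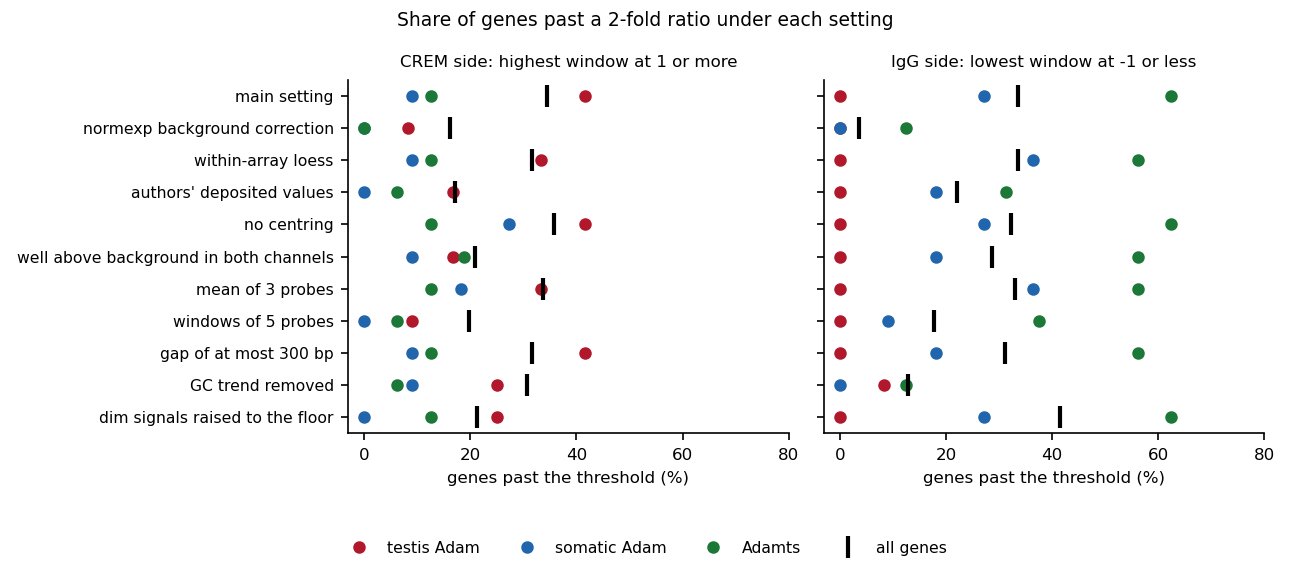
Share of genes in percent (horizontal axis) whose highest window was at 1 or more (left) or lowest window at -1 or less (right), for each class and for all genes (black bars), under the main setting and 10 others (vertical axis). The testis Adam share runs from 41.7% down to 8.33% with normexp correction, where all genes run from 34.4% to 16.2%, and on the right the Adamts share lies above the other classes but, with the GC trend removed, at 12.5%, not above the 12.8% of all genes.

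How far a member's value held depended on the setting. Across the 10 other settings the highest window of Adam29 ranged from 0.67 to 1.75 and stayed at 1 or more in 9. Adamts13 ranged from 0.48 to 1.53 and also stayed in 9, and Adam1a from 0.58 to 1.65 in 7. Adam2 (0.63 to 1.16), Adam24 (0.66 to 1.04) and Adamts4 (0.28 to 1.10) stayed in 5. Adam28 (0.31 to 1.39) stayed in 4, and Adam30 (0.18 to 1.15) and Adam7 (0.04 to 1.30) in 3. The lowest window of Adamts1, from -2.32 to -1.20, was the only one of the 23 called member windows to keep its side in all 10. Of the other windows on the IgG side, Adam11 stayed in 3, Adamts5 in 4, Adamts20 in 5 and Adamts2 in 6. Adam7, Adam9, Adamts7 and Adamts15 stayed in 7, and Adam23, Adamts8, Adamts17, Adamts18 and Adamts19 in 8.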

How the data were processed

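Cy5 marked DNA precipitated with the CREM antibody and Cy3 the IgG control, per the labels. The deposited scanner files give intensity: the background-subtracted, dye-normalised processed signal per spot (Feature Extraction 10.7.1.1, mm9, per the file headers). They also hold a log10 ratio, made by the authors' scanner software and not used here. The deposited value table holds the authors' log2 ratios, made with R 2.10.1 and limma per the submitters' processing notes; they matched the scanner spots in file order (r = 1) and served as an alternative.

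The log2 of Cy5 over Cy3 signal was centred on each array's median (a shift of 0.02), with no loess or quantile step. Control, outlier and unplaced probes, and those not well above background in either channel, were left out. Well-above-background and saturation marks are the deposited flags, a score of 0 or 1. No member probe was saturated. No column of another sample was present (0).

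Windows were tested on simulated data. Alternatives were normexp (offset 50), within-array loess, the authors' values, no centring, bright probes in both channels, the mean, 5 probes, a gap of 300 bp, GC trend removal (bins of 2%), raised dim signals, and other class memberships. The members and gene lists were chosen with earlier results of these data known. Genes given in full were members past 1 or -1 and the ends of each class; of each related list, the 2 highest and the lowest. RefSeq gave 43 member symbols directly and 1 by synonym. Exon and intron positions were not analysed here. Python 3.11.15, pandas 2.3.3, numpy 2.4.6, R 4.3.3 and limma 3.58.1 were used.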

Additional observations from a re-analysis of the deposited data

How the results depend on the processing

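No paired analysis was possible because each group has 1 sample. Of 170 class values under other settings, 137 stayed within 1.5 times or the spot spread, 33 moved and 0 reversed. Many of these values were gene counts, which cannot change sign, so no reversal was possible for them. The counts and shares given are for the CREM side and then the IgG side. With normexp, testis Adams fell to 1 and a median highest window of 0.45, somatic Adams to 0 and 0 with a median of 0.31, Adamts genes to 0 and 2, and the testis minus somatic difference of probe medians to 0.0159; all genes gave 16.2% and 3.70%. With the authors' deposited values, testis Adams gave 2 and a median of 0.50, somatic Adams 0 on the CREM side, and Adamts genes 1 and 5 with a median of 0.43 (all genes 17.1% and 22.0%). Windows of 5 probes gave testis Adams 1, somatic Adams 0 and 1, and Adamts genes 1 and 6 with a median of 0.44 (all genes 19.8% and 17.7%). With the GC trend removed, testis Adams gave 3 and 1, somatic Adams 0 on the IgG side, and Adamts genes 1 and 2 (all genes 30.8% and 12.8%). Raising dim signals to the floor, chosen after seeing the data, gave testis Adams 3, somatic Adams 0 and a somatic median of 0.30 (all genes 21.3% and 41.5%). Somatic Adams gave 3 on the CREM side without centring, 2 with the mean of 3 probes and 2 with Adam1a counted among them. Testis Adams gave 2 on the CREM side with bright probes in both channels, and 1 on the IgG side with Adam7 counted among them. The cause of these moves was not tested. Leaving out Adam9 and Adam32, also chosen after seeing the data, moved no count by over 1.5 times. Dim IgG signal limits the CREM side: at most 78.5% of probes were well above background in that channel.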
